A study of Drosophila melanogaster with 5 samples.

Results

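The genes described here are the fatty acyl desaturases and elongases that build the chains of cuticular hydrocarbons in Drosophila melanogaster, together with a sphingolipid desaturase and an electron donor. They were chosen by gene symbol from 10 names. Fad2 and desatF are names of 1 gene in the RefSeq gene table, so the names cover 9 genes, and 7 of these had a value among 10124 measured genes. The 7 were the desaturases Desat1, Fad2 and ifc, the elongases eloF, bond and Elo68beta, and the electron carrier Cyt-b5. Elo68alpha and Baldspot were not analysed here.

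Cuticular hydrocarbons are wax-like chains on the fly's surface that slow water loss and act as contact pheromones. They are made in oenocytes, large cells beneath the abdominal cuticle. Fatty acid synthases make the chain, desaturases set its double bonds with electrons passed on by cytochrome b5, elongases lengthen it, reductases turn it into an aldehyde, and the cytochrome P450 Cyp4g1 removes the end carbon to leave a hydrocarbon. In females of this species, dienes of long chain act as courtship signals.

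RNA came from whole females at 14 days of age, given only yeast paste for the last 48 h. The females without insulin-producing cells carried the driver InsP3-Gal4 with UAS-RPR/HID, which expresses the cell death genes reaper and hid in the brain cells that release insulin-like peptides. Control females carried the same driver with UAS-LacZ, so that the driver was common to both. Each of 5 two-colour arrays, made from 2 biological repeats, held both RNAs, with the IPC-deficient RNA (IPC, insulin-producing cell) in Cy5 on arrays 1 and 2 and in Cy3 on arrays 3, 4 and 5. Neither the number of flies pooled in an extract nor the repeat behind each array is given in the labels.

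The deposited table gave each probe 1 signed fold change that was the same on every array, in both dye orientations. It holds no spread over arrays or flies and allows no test, so a value below is the authors' combined value for all samples. It is printed as the log2 of the fold with its sign kept, and is the median over probes where a gene had several. The error used is the SD among probes of the same gene, 0.18 over probes with a value on all 5 arrays (647 genes with 1437 probes), which does not cover the spread between flies. Over all probes, sparsely filled ones included, this SD was 0.56 (1167 genes with 2649 probes), so values from few spots are less certain than 0.18 would give. The direction of the fold is not stated. A positive value is read here as higher in IPC-deficient females, a likely reading that rests on the order of the groups in the design and on the value of -4.10 for tobi, a gene named as a target of brain insulin. With the opposite reading every sign below turns. Ilp2, an insulin-like peptide gene of the ablated cells, stood at 0.01 from 4 spots, so its value did not show the ablation. Whether its signal lay near background was not examined. Because whole animals were extracted, fewer cells of a type and less RNA per cell cannot be told apart.

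Among the 7 genes, Fad2 stood furthest from 0 at 1.02, and it alone lay past 1.5-fold, the size used here to call a difference. On the positive side that is 1 of 7 genes, where 2.24% of all measured genes lay past 1.5-fold. On the negative side it is 0 of 7, where 3.11% of all measured genes did. Where each probe of a gene had a value on all 5 arrays, as for 6531 genes, these shares were 1.96% and 0.704%. Fad2 was also past 2-fold on the positive side, where 0.711% of all measured genes lay. Above 0 were Fad2, eloF and ifc. Desat1, bond, Elo68beta and Cyt-b5 lay below it, and the median of the 7 was -0.09, against -0.01 for all measured genes. The sign of this median turned with the filter on probes. It was 0.092 over the 6 genes left with probes on all 5 arrays, or with at least 5 filled spots, and 0.28 over the 5 genes whose every probe had a value on all 5 arrays.

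The 7 genes were read by 11 probes, each spotted in 2 copies on each array, so a probe had 10 possible spots. Values were filled in for 92 of the 110 possible spots, and all 10 were filled for 7 of the 11 probes. These 7 probes belonged to Fad2, eloF, ifc and Desat1. Each of the 5 arrays filled between 16 and 22 of the 22 spots, with the highest number on array 3. What left a cell empty is not stated.

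**Figure D1:**
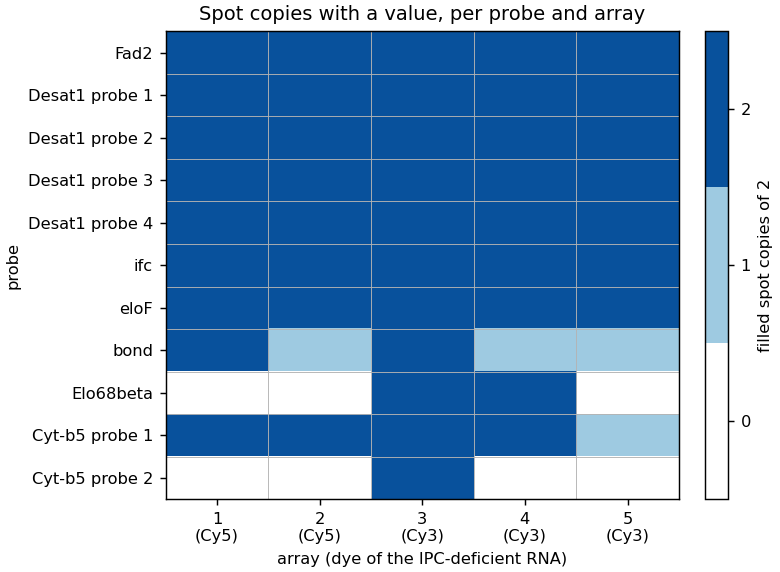
Number of filled spot copies, 0 to 2, for each of the 11 probes (rows) on each of the 5 arrays (columns, with the dye of the IPC-deficient RNA). Fad2, eloF, ifc and the 4 probes of Desat1 were filled throughout, whereas Elo68beta had values on arrays 3 and 4 alone and the second Cyt-b5 probe on array 3 alone.

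Fad2, also called desatF, encodes the desaturase that sets the second double bond of the female dienes, and its transcript is known to be female-biased in this species. Its single probe, filled in all 10 spots, gave a fold of 2.02, a log2 value of 1.02. This is far beyond the SD of 0.18 between probes of a gene. When each of the 1437 probes on all arrays was set against the mean of its gene's other such probes, 0.626% of the gaps were as large as the Fad2 value. Of the genes on all 5 arrays, 23 had a higher value than Fad2 and 6507 a lower one. The central 95% of all probes with 10 filled spots ran from -0.33 to 0.49, and Fad2 lay above it.

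Desat1 encodes the acyl-CoA desaturase that sets the first double bond, both for hydrocarbons and for membrane and storage lipids. It was read by 4 probes, each filled in 10 spots, whose values were -0.18, -0.16, -0.03 and 0.08. The probes lay on both sides of 0, with a mean of -0.07 ± 0.12 (SD, n = 4 probes), and the median of -0.09 is a fold of 1.07. All 4 lay within 1 SD between probes of 0. Desat1 was thus within probe error of 0, while Fad2, the other acyl desaturase of the set, was not. The annotation assigns all 4 Desat1 probes to the same transcript record, so they do not tell the gene's several transcripts apart.

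The sphingolipid desaturase gene ifc, whose product turns dihydroceramide into ceramide and which is known to be needed for sperm formation, stood at 0.28 from 10 spots of 1 probe. This 1.21-fold value was larger than 1 SD between probes. It lay inside the central 95% of probes with 10 spots, and 15.9% of the gaps between probes of a gene were as large.

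**Figure D2:**
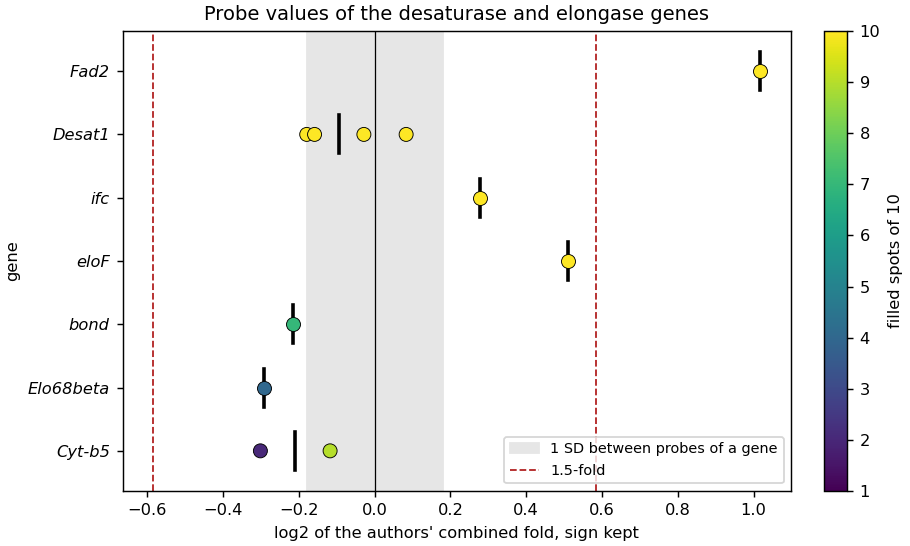
Log2 value of each probe (points, coloured by the number of filled spots of 10) and the gene value (black bar, the median over probes) for the 7 genes. The grey band is 1 SD between probes of a gene, 0.18 on either side of 0, and the dashed lines mark 1.5-fold. Fad2 at 1.02 is the only point outside the dashed lines.

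Among the 3 measured elongases of the set, eloF had the highest value. Its product lengthens the chains of the female dienes, and the gene is known to be expressed mainly in females. The eloF probe, filled in all 10 spots, gave a fold of 1.42 and a log2 value of 0.51. It did not reach 1.5-fold, but lay just above the central 95% of probes with 10 spots. Gaps of this size between probes of a gene occurred in 3.62% of cases. Higher values than that of eloF were found for 178 of the 6531 genes on all arrays.

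The other measured elongases of the set lay on the negative side, both beyond 0.18 and short of 1.5-fold. The bond gene, known for its role in the division of male germ cells and for lipids of the male reproductive tract, stood at -0.21 from 7 of 10 spots on 5 arrays, a fold of 1.16. Elo68beta stood at -0.29, a fold of 1.22, from 4 spots. Those spots were the paired copies on arrays 3 and 4, which both carried the IPC-deficient RNA in Cy3, so no array of the other dye orientation filled a cell for this gene. Elo68beta is the neighbour and paralog of Elo68alpha, an elongase gene known from the male reproductive tract. Probes with as few spots spread widely, from -1.12 to 0.56 for the central 95% of probes with 4 spots and from -0.54 to 0.46 with 7 spots, and both genes lay inside.

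Although all flies are labelled as female, transcripts known from males could be read, and they too lay mostly below 0, as did 5250 of all 10124 measured genes. Of 12 measured accessory gland markers 11 were below 0, with a range from -3.20 to 0.07, and 4 lay past 1.5-fold on the negative side, where 3.11% of all measured genes did. Those 4 had 3 or 4 filled spots each, and of all probes with 3 or 4 spots 14.0% and 9.11% were past 1.5-fold on that side. With at least 5 filled spots, 5 of these markers were left and 0 lay past 1.5-fold. Of 14 testis markers 12 were below 0, with a range from -1.59 to 0.01. Their median was -0.09, against -0.01 for all measured genes. On the negative side 2 were past 1.5-fold, against the same 3.11%. These were nht at -1.59 from 5 spots and Mst98Cb at -0.59 from 9 spots, both on all 5 arrays. Past 1.5-fold on that side were 5.98% of all probes with 5 spots and 0.943% of those with 9. Of the 8 testis markers with every probe on all 5 arrays these 2 were past it, where 0.704% of such genes were. The 3 ejaculatory bulb and duct markers were divided, with EbpII at -1.94, Gld at -0.55 and EbpIII at 0.59. They had 9, 8 and 10 filled spots. How far these 3 genes are confined to males was not examined. The part of all these markers in the values of bond and Elo68beta was not tested. Female reproductive markers stood on both sides, 6 of 15 above 0 and 9 below, between -0.54 and 0.67.

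Cyt-b5 encodes the haem protein that hands electrons to the acyl desaturases. Its probes gave -0.12 from 9 spots and -0.30 from 2 spots, the latter on array 3 alone. The gene value of -0.21, a fold of 1.16, therefore averages a well filled and a sparsely filled probe. The better filled probe lay within 1 SD between probes of 0.

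**Figure D3:**
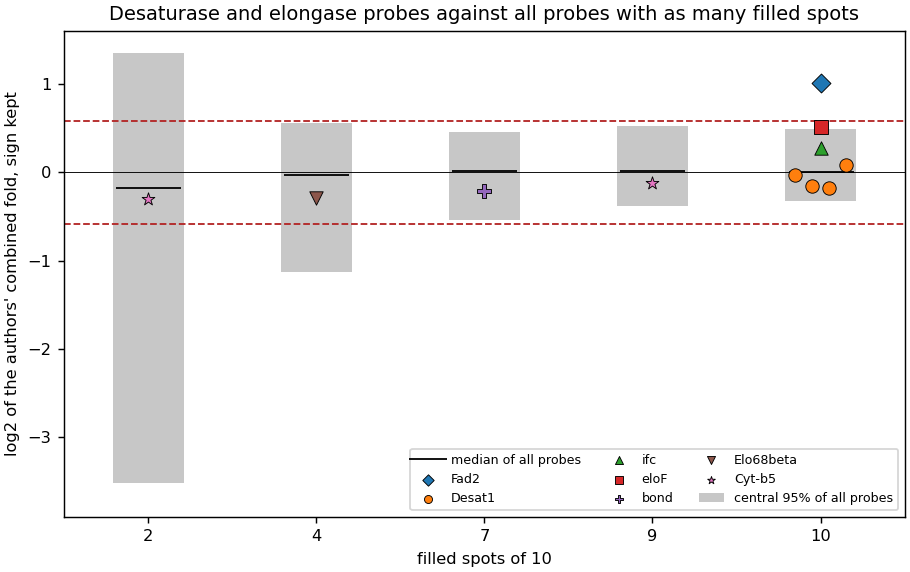
Log2 value of each probe of the 7 genes (symbols, the 4 Desat1 probes set side by side) by its number of filled spots, over the central 95% (grey bars) and median (black lines) of all probes with as many filled spots. Dashed lines mark 1.5-fold. At 10 spots the bar runs from -0.33 to 0.49, with Fad2 and eloF above it, and all other probes lie inside their bars.

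Several of these genes lie beside other desaturase or elongase genes in the genome, which allowed their values to be set against those of close paralogs. In the order of the RefSeq gene table, eloF lies in a run of 5 elongase genes on chromosome arm 3R, CG8534, eloF, CG16904, CG9459 and CG9458. CG16904, which follows eloF, had a value of 0.75 from all 10 spots, past 1.5-fold on the same side and higher than eloF itself. CG9458, the last of the run, stood at 0.09 from 7 spots, within probe error of 0. The 3 measured protein-coding genes just before the run, CG9467, CG8526 and FBXO11, lay between -0.19 and -0.10. The eloF and CG16904 probes are single probes of related genes, and how far either binds the other's transcript was not tested.

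The bond gene lies on the same arm in a group with CG5326, sit and CG33110, all elongase genes, with AdipoR between CG5326 and bond. CG5326 stood at -0.03 and sit at 0.10, both within probe error of 0, beside bond at -0.21. Desat1 lies 3 protein-coding genes from its paralog Desat2, known for the hydrocarbon difference between fly populations. Desat2 stood at 0.07 from 6 spots, as near 0 as Desat1. CG18549, a neighbour of Desat1 that is neither a desaturase nor an elongase, stood at -1.31. Fad2 has no other desaturase or elongase among the 4 protein-coding genes on either side, and its 7 measured neighbours ranged from -0.25 to 0.26.

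**Figure D4:**
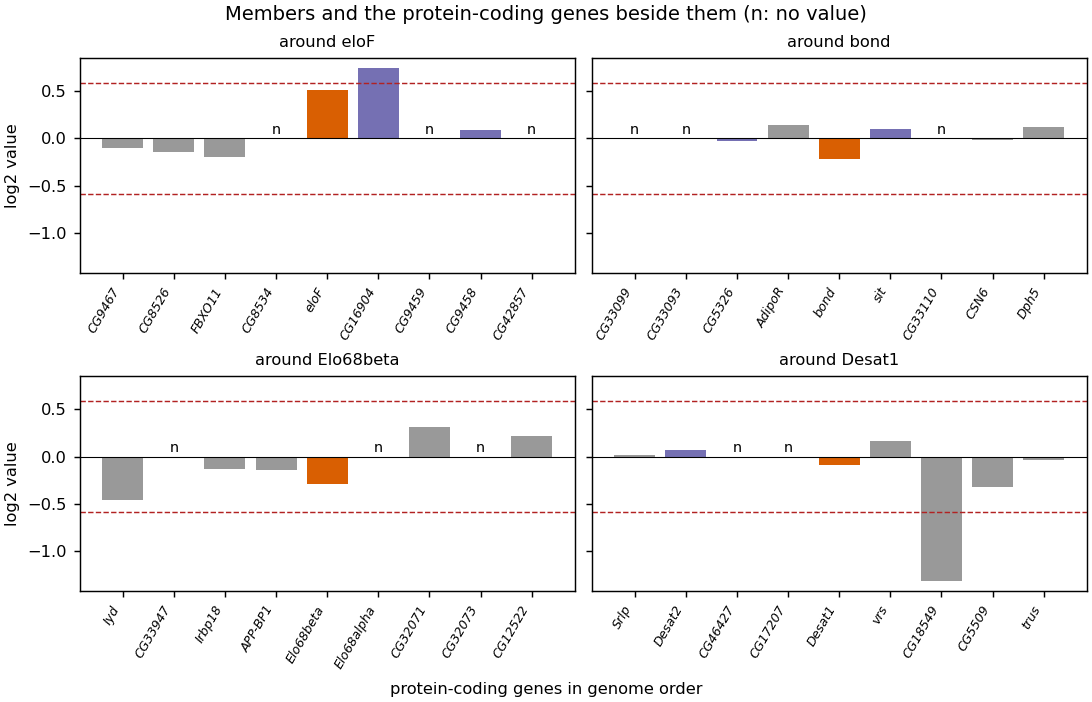
Log2 value of eloF, bond, Elo68beta and Desat1 (orange) and of the 4 protein-coding genes on either side of each in genome order, with other desaturases and elongases in purple, all other genes in grey and n for genes with no value. Dashed lines mark 1.5-fold. CG16904 at 0.75 stands beside eloF at 0.51, while bond at -0.21 stands between CG5326 at -0.03 and sit at 0.10.

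The other desaturase and elongase genes did not share 1 direction. All 7 other desaturases were measured, with 3 above 0, 4 below and a median of -0.04. CG9743 lay past 1.5-fold on the negative side at -0.69, from 4 spots on 3 arrays. On that side 3.11% of all measured genes and 9.11% of all probes with 4 spots lay past 1.5-fold. CG15531 stood at 0.40 from 10 spots and CG8630 at 0.26 from 4 spots. Of the 15 other elongases, 8 were measured, with 6 above 0, 2 below and a median of 0.21. Only CG16904 lay past 1.5-fold, on the positive side, where 2.24% of all measured genes did. CG6660 stood at 0.41 from 6 spots and Elovl7 at 0.36 from 9 spots. The 4 elongases of this list with every probe on all 5 arrays were all above 0, between 0.09 and 0.75.

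The steps before and beside desaturation held genes on both sides and 0 past 1.5-fold. Of 20 measured genes of chain synthesis, activation and the elongation cycle, 12 were above 0 and 8 below, with a median of 0.07. ACC, whose enzyme makes the malonyl-CoA used for every round of chain growth, stood at -0.55 from 8 of 20 spots, with probes at -1.002 and -0.10. The lower probe taken alone would put ACC past 1.5-fold on the negative side. Neither ACC probe had at least 5 filled spots. Sc2, the enoyl reductase that ends an elongation round, stood at 0.35 from 10 spots, and the fatty acid synthase FASN1 at 0.31. Electron carriers listed by name, 6 of which were measured, lay between -0.09 (Cyt-b5-r, also on the list of other desaturases) and 0.24 (CG6870), and CG5946 stood at 0.12.

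The list of hydrocarbon end steps and fatty acyl reductases held more genes above 0 than below. The reductases are on it as a family, and which of them act in hydrocarbon synthesis was not examined. Of its 16 measured genes 12 were above 0, as were 4874 of all 10124 measured genes. Past 1.5-fold lay 3, all on the positive side, where 2.24% of all genes did. CG17560 stood at 0.90 and Sgp at 0.87, each from 8 spots of 1 probe, and both are listed as fatty acyl reductases. Cyp4g1, the enzyme that forms the hydrocarbon in oenocytes, stood at 0.82 from 10 spots. FarO, the fatty acyl reductase of oenocytes, stood at 0.16 from 9 spots, within probe error of 0. The list median was 0.14.

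In the sphingolipid pathway around ifc, 12 genes were measured, 8 above 0 and 4 below, with a median of 0.12. CDase, a ceramidase that breaks ceramide down, alone lay past 1.5-fold, at 0.82 from 9 spots, where 2.24% of all genes did on that side. Sply, which ends sphingolipid breakdown, stood at 0.30 and Fa2h, a fatty acid hydroxylase, at 0.29. These 3, the furthest from 0 on the list, lay on the same side as ifc at 0.28. Also on the list, lace stood at -0.19, Spt-I at 0.16 and schlank at 0.16.

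**Figure D5:**
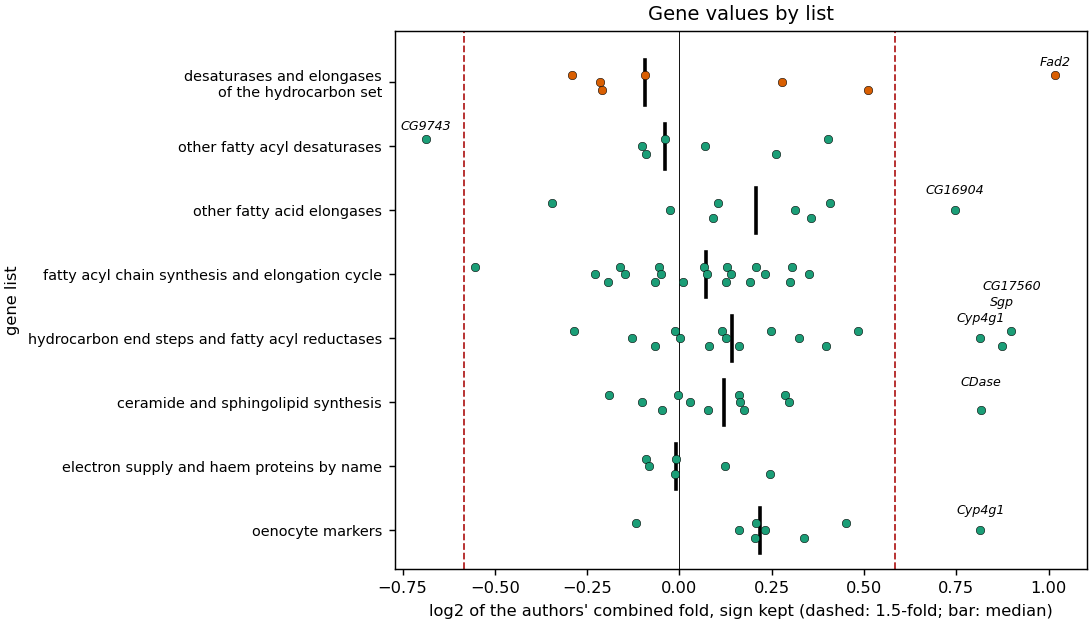
Log2 value of each measured gene (points) and the median (black bar) for the 7 genes of the hydrocarbon set (orange) and for 6 lists of related genes and the oenocyte markers (green, without the 7). Dashed lines mark 1.5-fold and genes past it are named. The list of end steps and reductases holds 3 named genes, between 0.82 and 0.90, and the other elongases 1, CG16904 at 0.75.

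Markers of the cells that make hydrocarbons lay mostly on the side of Fad2 and eloF. Apart from Desat1 at -0.09 and eloF at 0.51, which were also on the list, 8 oenocyte markers were measured. Of these, 7 were above 0, as were 4874 of all 10124 measured genes. The 8 ranged from -0.12 to 0.82 with a median of 0.22. Antdh at 0.45 and Cyp6a20 at -0.12 are known from the antenna. Setting these 2 apart was not planned beforehand, and it removes Cyp6a20, the only one of the 8 below 0. The other 6 lay between 0.16 and 0.82, with FarO at 0.16 within probe error of 0. Cyp4g1 was past 1.5-fold, where 2.24% of all measured genes lay on the positive side. FASN2 stood at 0.21, svp at 0.21, FASN3 at 0.23 and Cyp4ac1 at 0.34. FASN3 was read by probes at -0.09 and 0.55, and svp by probes at 0.06 and 0.35. The part of these markers in the values of Fad2 and eloF was not tested. The list shares Cyp4g1, FarO, FASN2 and FASN3 with the pathway lists above. Fat body markers, 7 of which were measured, lay between -0.55 and 0.56, with 2 above 0 and 5 below.

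The positions of the probes on the array were also examined, since spots close together can share local error. Around the 11 probes, 214 measured probes lay within 2 spots, of which 11 were past 1.5-fold, 4 of them positive and 7 negative. For comparison, 2.24% of all measured genes had positive values of this size and 3.11% had negative ones. Whether such probes were more frequent here than elsewhere on the array was not tested. None of the 13 measured neighbours of the Fad2 probe was past 1.5-fold, with a range from -0.30 to 0.50, and none of the 24 around eloF, from -0.55 to 0.57. The 11 neighbours past 1.5-fold lay beside probes of Desat1, Elo68beta, ifc and Cyt-b5. Beside 3 of the Desat1 probes these included mex1 at 0.82 (9 spots), CG6283 at 0.66 (8 spots) and Mst57Db at -3.20 (4 spots). The others there were CG10348 at 1.11 (2 spots), Gbeta76C at -0.70 (6 spots) and bab2 at -0.77 (4 spots). CG13032 at 2.68 (1 spot) lay beside Elo68beta and CG9664 at -1.76 (3 spots) beside ifc. Beside the Cyt-b5 probes lay CG7130 at -1.23, Pym at -8.44 and a probe without a gene name at -0.61, each from 1 filled spot.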

How the data were processed

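The table deposited by the authors held a signed fold change per feature, with sizes of at least 1 and a sign for the direction. Per the labels' design text, each array was scanned 3 times, and both spot copies and all hybridisations entered the normalization. The background correction, how values were normalized and why cells are empty are not stated. Of 27376 features with 2 or more filled columns, 0 differed between columns by over 1e-06, so the planned limma fit was not run. Each fold was turned into log2 with its sign kept. Of 16224 probes, 12536 had 1 gene symbol in the annotation of 2007, 3 several and 3685 none. Symbols were updated through a RefSeq table of Release 6, by Entrez identifier for 12068 probes and by transcript accession for 113, and 355 kept their name. A gene's value is the median over its probes, with probes equal to 5 decimals counted once.

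The genes and lists were chosen with earlier results of these data known. Named are all measured members, in each pathway list the genes past 1.5-fold and the 3 furthest from 0, neighbouring desaturases and elongases, and array neighbours past 1.5-fold. Other neighbours, other list genes and markers were named after their values were seen. The joining of spots and probes into gene values was run on simulated data with known values. Each simulated probe held the same value in all its filled cells. That run therefore checked the code alone and gives no measure of the error in these data. Intensities were not analysed, and the number of arrays limits the precision. Python 3.11.15, numpy 2.4.6, pandas 2.3.3 and matplotlib 3.10.9 were used.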

Additional observations from a re-analysis of the deposited data

How the results depend on the processing

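The alternatives were the mean over probes, the probe with most filled spots, probes on all 5 arrays, probes with at least 5 of 10 spots, columns centred on their medians and a 2-fold threshold. All 33 recomputed values of the 7 genes stayed within 1 SD between probes of those reported, with Fad2 between 1.01 and 1.02 and eloF at 0.51. Fad2 alone stayed past the threshold, at 2-fold too. Fad2, eloF, ifc, bond and Elo68beta were each read by 1 probe, so the alternatives on probes could only return the same value or none. Centring could move values little, since the column medians lay between -0.0005 and 0.007. For these genes the unchanged values are therefore no check of the result. The median over the 7 genes moved from -0.093 to 0.092 with probes on all 5 arrays and likewise with at least 5 spots, since Elo68beta then had no value. Under those same filters 0 other desaturases lay past 1.5-fold on the negative side, since CG9743 had too few spots. At 2-fold the call counts were 0 for the negative side of the other desaturases and for the positive side of the other elongases, the end steps and the sphingolipid genes. With the probe with most filled spots, 1 gene of chain synthesis, ACC, lay past 1.5-fold on the negative side. Neither ACC probe had at least 5 filled spots. The 2-fold threshold also lowered counts of marker lists. The alternatives for the other lists were chosen after seeing the data. Arrays could not be left out in turn, because their values were already combined. For the same reason no paired analysis over the 5 arrays, each of which held both RNAs, was possible.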
